A study of Homo sapiens with 45 samples.

Results

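FOXA1 knockdown was compared with MDC1 knockdown in MM134 (MDA-MB-134-VI), a human cell line from invasive lobular breast carcinoma, a tumour of loosely attached cells that usually lack E-cadherin. The comparison took 3 libraries labelled siFOXA1_E2 and 3 labelled siMDC1_E2, which are 6 of the 45 libraries of the series. All genes that passed a filter on low counts were tested, 17744 of 57353 symbols. The difference is siFOXA1_E2 over siMDC1_E2 throughout, so that a positive log2 fold change means more transcript after FOXA1 knockdown.

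Both groups were kept without hormone in charcoal-stripped serum for 3 days and transfected with an siRNA, a small double-stranded RNA that guides the cell to destroy transcripts it pairs with. The siFOXA1_E2 group received an siRNA against FOXA1 and the siMDC1_E2 group an siRNA against MDC1, and both were given 100 pM estradiol (E2) 24 h later and collected 24 h after that. The other MM134 groups were siER_E2 (an siRNA against the estrogen receptor gene, with E2), siNT_E2 (a non-targeting siRNA, with E2) and siNT (the same non-targeting siRNA with 0.01% ethanol as vehicle), with 3 libraries each. The same knockdown groups were available in MM330, also a lobular line, and in HCC1428, a ductal line. The labels do not say how many siRNA sequences were pooled against each gene, or whether each library stands for its own culture, so p-values measure only the spread between these libraries. Knockdown by siRNA is partial and transient, and in bulk RNA fewer cells of a type and less RNA per cell cannot be told apart.

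FOXA1 is a pioneer transcription factor. It binds DNA in closed chromatin and opens sites at which the estrogen receptor can bind, and it takes part in keeping breast cells luminal. MDC1 is a large scaffold protein that binds phosphorylated histone H2AX at DNA double-strand breaks and recruits repair and checkpoint factors, and the study's title names it as a co-regulator of the estrogen receptor in lobular carcinoma. Estradiol-bound receptor raises transcription of genes such as TFF1, GREB1 and PDZK1 and lowers others. The comparison asks how far loss of the pioneer factor and loss of the repair scaffold leave E2-treated lobular cells in different states.

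Each siRNA lowered its own target (the plot of targeted transcripts by group). FOXA1 (chromosome 14, 37589984 to 37596059, minus strand, GRCh38) had 119, 120.3 and 120.2 CPM (counts scaled to the library total) in siFOXA1_E2, against 492, 476 and 480 CPM in siMDC1_E2. The log2 fold change was -2.01 ± 0.03 (SE), at an adjusted p of 5.1e-22 by edgeR's quasi-likelihood test, and no library of one group came near the other. Its mean in siNT_E2 was 470 CPM, close to the level under MDC1 knockdown. FOXA1 overlaps TTC6 on the other strand, so its reads may be shared. MDC1 (chromosome 6, 30699807 to 30717889, minus strand) had 143, 148 and 147 CPM in siFOXA1_E2, against 42.8, 46.3 and 38.9 CPM in siMDC1_E2. That is a log2 fold change of 1.77 ± 0.05 (adjusted p = 1.4e-17). Its mean in siNT_E2 was 186 CPM, and the FOXA1-targeted libraries were below that as well (log2 -0.35, adjusted p = 7.2e-07).

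ESR1, the gene of estrogen receptor alpha (chromosome 6, 151656691 to 152129619, plus strand), was low in both groups. It had 119.5, 113 and 119.8 CPM in siFOXA1_E2, against 128, 128 and 129 CPM in siMDC1_E2. Every FOXA1-targeted library lay below every MDC1-targeted one, but the distance was small, at -0.13 ± 0.04 log2 units (adjusted p = 0.011), and it was not called without siFOXA1_E2 replicate 2 (-0.11, adjusted p = 0.067). Against 573 CPM in siNT_E2, ESR1 was lower by -2.29 log2 units in siFOXA1_E2 and by -2.16 in siMDC1_E2, and the siER_E2 libraries averaged 65.9 CPM. Both comparisons share the siNT_E2 libraries, and 56.3% of all genes were called in siFOXA1_E2 against siNT_E2 and 50.3% in siMDC1_E2 against siNT_E2. ESR1 overlaps SYNE1 on the other strand.

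**Figure D1:**
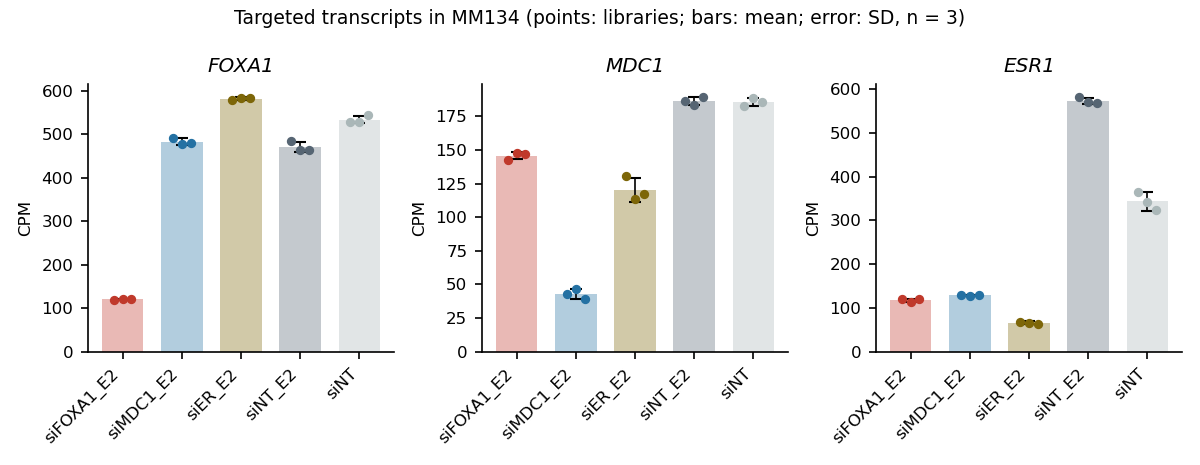
FOXA1, MDC1 and ESR1 in CPM (vertical axes, from 0) in the 5 MM134 groups, with 1 point per library, bars for the mean and error bars for the SD of 3 libraries. FOXA1 is low only in siFOXA1_E2 (mean 119.9 CPM), MDC1 is lowest in siMDC1_E2 (42.7 CPM), and ESR1 averages 117 CPM in siFOXA1_E2 and 129 CPM in siMDC1_E2, against 573 CPM in siNT_E2.

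The transcriptomes differed widely. Of 17744 genes tested, 8831 (49.8%) passed an adjusted p below 0.05, of which 4338 (24.4%) were higher and 4493 (25.3%) lower in siFOXA1_E2. Most differences were small: 798 genes (4.5%) were higher and 628 (3.54%) lower by 2-fold or more. The median log2 fold change over all genes tested was 0.004. The groups did not overlap in CPM for 4924 genes (27.8%) that were higher and 5083 (28.6%) that were lower in siFOXA1_E2. Most members named for the lists below were picked by smallest p, which favours lack of overlap. For most lists below, the shares of tested members called higher and lower are given. They are to be read beside 24.4% higher and 25.3% lower over all genes. A member could pass the filter through the group in which it was high, so the shares describe tested members only. The 6 libraries held 29.8 to 33.4 M counts. Replicate 1 of siFOXA1_E2 had 0.4925% of its counts at processed pseudogenes, against 0.145% to 0.152% in the other 5. It was among 11 libraries of the series with a share of at least 0.337%, while the other 34 had at most 0.159%. Without the libraries of the higher class, 8438 genes were called, with 683 higher and 656 lower by 2-fold or more. Without siFOXA1_E2 replicate 1 alone, these 2-fold counts were 660 higher and 640 lower. They were 981 higher and 637 lower without replicate 2, and 1006 higher and 633 lower without replicate 3.

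**Figure D2:**
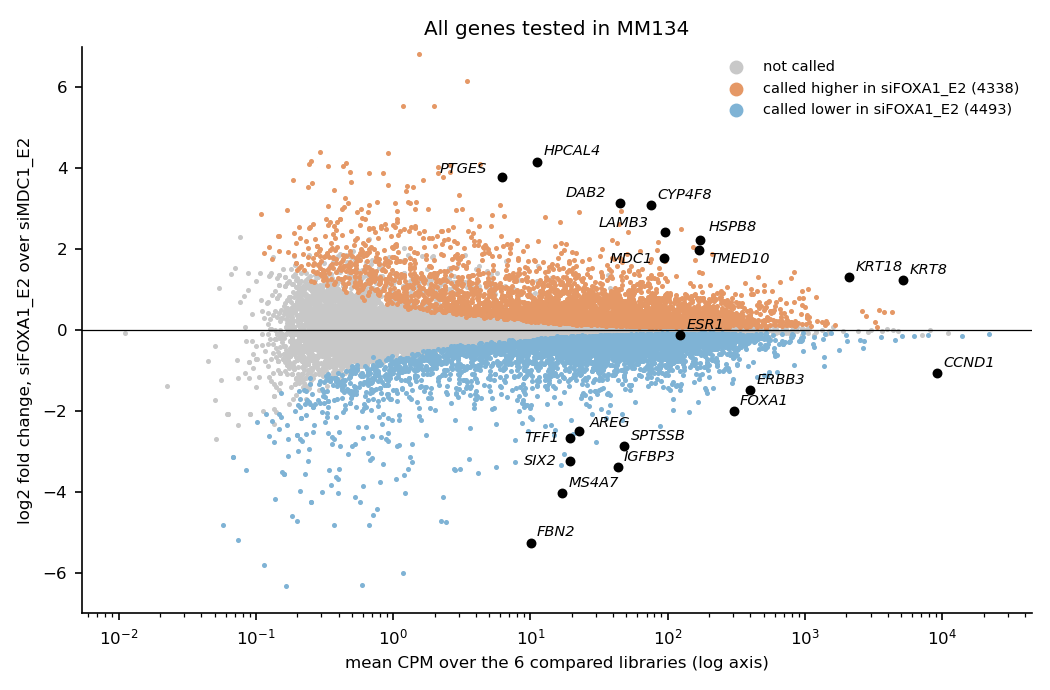
Log2 fold change of siFOXA1_E2 over siMDC1_E2 (vertical axis) against the mean CPM of the 6 libraries (log axis), with 1 point per gene tested, coloured by whether it was called. Called genes lie on both sides in nearly equal numbers, 4338 higher and 4493 lower, and 5 genes beyond 7 log2 units are outside the axis.

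Among protein-coding genes with at least 10 CPM in either group, the 12 that were highest in siFOXA1_E2 included enzymes of lipid, prostaglandin and retinoid metabolism. Only called genes whose groups did not overlap were eligible, so separation between the groups was a condition of the choice. HPCAL4, a neuronal calcium sensor protein, had 22.0, 21.6 and 20.1 CPM in siFOXA1_E2, against 0.966, 1.27 and 1.29 CPM in siMDC1_E2. The log2 fold change was 4.17 ± 0.16 (adjusted p = 2.6e-15). PTGES, which makes prostaglandin E, had 11.63, 11.53 and 11.59 CPM in siFOXA1_E2, against 0.966, 1.03 and 0.510 CPM in siMDC1_E2 (log2 3.79 ± 0.21). CYP4F8, a cytochrome P450 that hydroxylates prostaglandins, had 136, 132 and 138 CPM in siFOXA1_E2, against 14.2, 18.1 and 15.5 CPM in siMDC1_E2 (log2 3.09 ± 0.08). Lack of overlap in these 3 genes follows from that condition. CYP4F22, which hydroxylates very long fatty acids for the ceramides of the skin barrier and lies near CYP4F8 on chromosome 19, had 74.9, 75.8 and 77.0 CPM in siFOXA1_E2, against 11.53, 11.73 and 13.33 CPM in siMDC1_E2 (log2 2.64 ± 0.07).

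The siNT_E2 levels placed these genes differently. PTGES averaged 11.6 CPM in siFOXA1_E2, 0.836 CPM in siMDC1_E2 and 8.87 CPM in siNT_E2, so that the MDC1-targeted libraries were the low ones. CYP4F8 averaged 135 CPM in siFOXA1_E2, 15.9 CPM in siMDC1_E2 and 17.4 CPM in siNT_E2, so that the FOXA1-targeted libraries were the high ones. DAB2, a clathrin adaptor of endocytosis, lay on both sides of its siNT_E2 mean of 24.1 CPM. It had 80.4, 79.1 and 83.0 CPM in siFOXA1_E2, against 10.04, 8.98 and 8.40 CPM in siMDC1_E2 (log2 3.14 ± 0.06, adjusted p = 4.3e-20).

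The other 7 of these 12 were higher in siFOXA1_E2 by log2 2.44 to 2.95. PTPRH, a receptor-type tyrosine phosphatase, had 76.1, 81.8 and 86.2 CPM in siFOXA1_E2, against 9.56, 11.4 and 10.5 CPM in siMDC1_E2. ASS1, the argininosuccinate synthase of arginine synthesis, averaged 39.9 ± 1.8 CPM in siFOXA1_E2 and 5.27 ± 0.425 CPM in siMDC1_E2 (SD, n = 3 each). RDH16, a retinol dehydrogenase, averaged 11.2 ± 0.403 CPM in siFOXA1_E2 and 1.57 ± 0.257 CPM in siMDC1_E2. The fitted folds were 7.75 for PTPRH, 7.57 for ASS1 and 7.12 for RDH16. LAMB3, the beta chain of laminin-332 in the epithelial basement membrane, had 162, 159 and 163 CPM in siFOXA1_E2, against 29.9, 30.1 and 29.3 CPM in siMDC1_E2 (log2 2.44 ± 0.04). CAPN5, a calpain protease, had 203, 216 and 213 CPM in siFOXA1_E2, against 36.9, 36.8 and 37.5 CPM in siMDC1_E2 (log2 2.51 ± 0.04). NRXN3, a synaptic adhesion protein, and LY6G6C, a GPI-anchored surface protein, had log2 fold changes of 2.79 and 2.67. LY6G6C overlaps MPIG6B on the other strand, and no source used here says whether the counting used strand.

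The 12 lowest genes in siFOXA1_E2 held secreted proteins, a growth factor binding protein and a lipid mediator enzyme with its receptor. They were chosen under the same conditions. FBN2, a fibrillin of elastic microfibrils, had 0.483, 0.496 and 0.555 CPM in siFOXA1_E2, against 21.0, 19.0 and 18.8 CPM in siMDC1_E2. This was the lowest of the 12, at log2 -5.25 ± 0.12 (adjusted p = 4.9e-19). MS4A7, a membrane-spanning protein of the MS4A family, had 1.64, 2.38 and 1.85 CPM in siFOXA1_E2, against 33.1, 30.8 and 32.0 CPM in siMDC1_E2 (log2 -4.03 ± 0.09). It overlaps MS4A14 on the same strand, so its reads may be shared. IGFBP3, which binds insulin-like growth factors, had 7.38, 7.11 and 8.17 CPM in siFOXA1_E2, against 70.9, 85.5 and 79.6 CPM in siMDC1_E2 (log2 -3.38 ± 0.08).

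LIPH makes lysophosphatidic acid from phosphatidic acid, and LPAR1 is a receptor of that lipid. LIPH had 4.32, 3.37 and 3.67 CPM in siFOXA1_E2, against 30.8, 31.5 and 31.8 CPM in siMDC1_E2 (log2 -3.05 ± 0.09). LPAR1 had 3.64, 4.16 and 4.72 CPM in siFOXA1_E2, against 26.6, 24.6 and 24.5 CPM in siMDC1_E2 (log2 -2.59 ± 0.08). Both were low in all FOXA1-targeted libraries. SPTSSB, a small subunit of serine palmitoyltransferase at the start of sphingolipid synthesis, had 10.8, 11.8 and 12.2 CPM in siFOXA1_E2, against 92.5, 85.6 and 76.7 CPM in siMDC1_E2 (log2 -2.87 ± 0.06). SIX2, a homeobox transcription factor, had 3.03, 3.97 and 4.13 CPM in siFOXA1_E2, against 36.0, 33.5 and 35.5 CPM in siMDC1_E2 (log2 -3.24 ± 0.09). WNK4, a kinase that controls ion transport, and RND1 had log2 fold changes of -2.77 and -2.72, and WNK4 overlaps COA3 on the other strand. SRARP, a steroid receptor-associated protein, had 0.902, 0.727 and 1.29 CPM in siFOXA1_E2, against 9.49, 10.3 and 11.02 CPM in siMDC1_E2 (log2 -3.39 ± 0.16). BCAS1, a gene amplified in breast carcinoma, had 3.29, 3.01 and 2.74 CPM in siFOXA1_E2, against 30.2, 32.5 and 28.7 CPM in siMDC1_E2 (log2 -3.34 ± 0.08).

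IGFBP3, SIX2, LIPH and WNK4 were called higher in siMDC1_E2 than in siNT_E2 and lower in siFOXA1_E2 than in siNT_E2, in comparisons that share the siNT_E2 libraries. Against siNT_E2, IGFBP3 changed by log2 -1.20 in siFOXA1_E2 and by log2 2.18 in siMDC1_E2. LIPH changed by log2 -1.36 in siFOXA1_E2 and by log2 1.69 in siMDC1_E2, and WNK4 by log2 -1.36 in siFOXA1_E2 and by log2 1.42 in siMDC1_E2. SIX2 changed by log2 -0.32 in siFOXA1_E2 and by log2 2.92 in siMDC1_E2. All 4 genes were also higher in siNT than in siNT_E2, averaging 41.1, 30.1, 41.4 and 88.5 CPM in siNT for IGFBP3, SIX2, LIPH and WNK4, against 17.4, 4.63, 9.62 and 19.6 CPM in siNT_E2. The heat map of the 24 genes shows this arrangement by library.

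**Figure D3:**
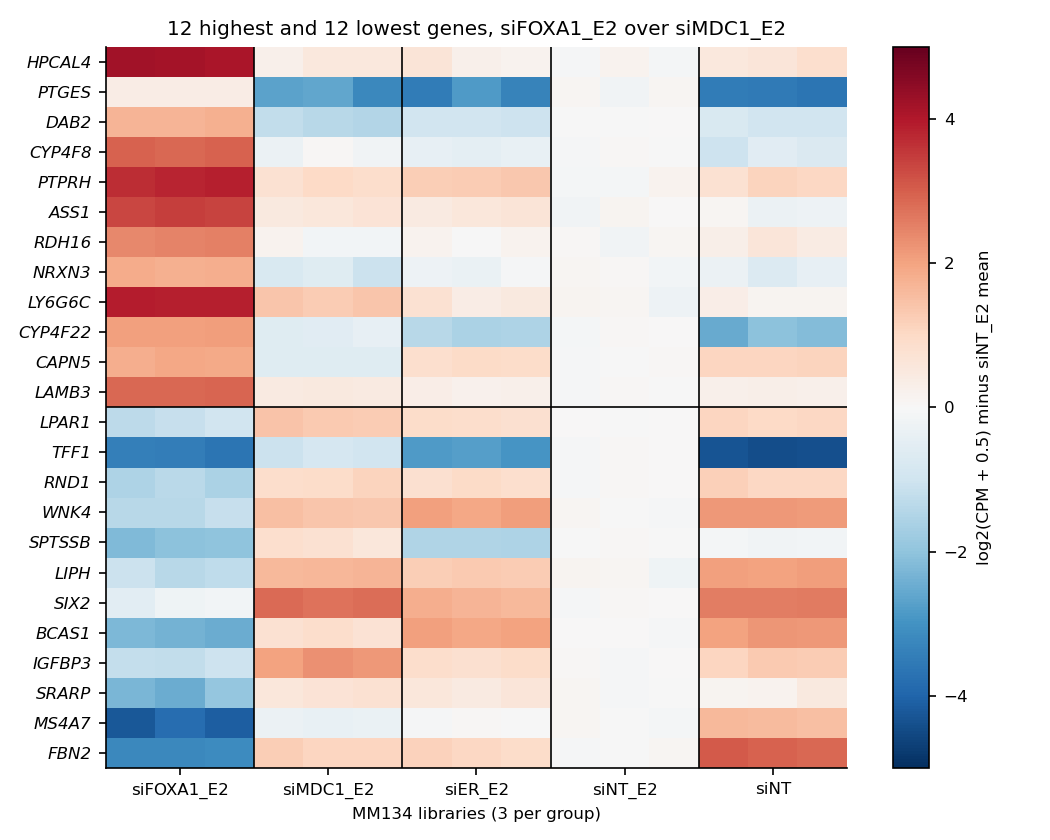
The 12 highest and 12 lowest named genes (rows) in the 15 MM134 libraries (columns, 3 per group), coloured by log2(CPM + 0.5) minus the mean of siNT_E2. Rows above the line are warmer in siFOXA1_E2 than in siMDC1_E2, up to HPCAL4 at log2 4.17, and rows below it are cooler, down to FBN2 at log2 -5.25.

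Genes that estradiol is known to induce moved in both directions. Of 54 listed, 50 were tested, and 18 (36%) were higher and 24 (48%) lower in siFOXA1_E2. The shares over all genes were 24.4% and 25.3%. The median log2 fold change of the list was -0.14, against a median of 0.004 over all genes. The list's median was -0.069 without siMDC1_E2 replicate 3 and -0.056 with no filter on low counts. By 2-fold or more, 3 were higher and 13 lower. The low ones included secreted and surface luminal proteins. TFF1, a trefoil peptide and a classical receptor target, had 5.64, 5.49 and 4.72 CPM in siFOXA1_E2, against 30.5, 36.6 and 33.3 CPM in siMDC1_E2 (log2 -2.67 ± 0.08). AREG, a ligand of the EGF receptor, had 7.31, 5.82 and 7.28 CPM in siFOXA1_E2, against 37.3, 40.5 and 38.0 CPM in siMDC1_E2 (log2 -2.50 ± 0.09). In both genes the groups did not overlap, which their choice required or favoured. TFF1 averaged 65.1 CPM and AREG 137 CPM in siNT_E2, so both knockdowns lay below it. CCND1, the cyclin that drives entry into the cell cycle, had 5905, 5850 and 5966 CPM in siFOXA1_E2, against 12590, 12380 and 12090 CPM in siMDC1_E2 (log2 -1.06 ± 0.02). It overlaps LTO1 on the other strand.

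HSPB8, a small heat shock protein induced by estrogen, ran the other way. It had 271, 284 and 292 CPM in siFOXA1_E2, against 56.9, 60.4 and 62.3 CPM in siMDC1_E2 (log2 2.24 ± 0.04, adjusted p = 2.9e-21). Its means were 217 CPM in siNT_E2 and 54.3 CPM in siNT, so the MDC1-targeted libraries stood near the level without hormone. HSPB8 overlaps AC084880.1 on the same strand. GREB1, PDZK1, MYC and CXCL12, other targets of the receptor, lay within 2-fold between the groups. GREB1, a receptor co-factor, had 121, 119.8 and 128 CPM in siFOXA1_E2, against 92.4, 98.9 and 93.2 CPM in siMDC1_E2 (log2 0.38 ± 0.04), and averaged 570 CPM in siNT_E2. PDZK1, a scaffold protein, had 5.54, 6.01 and 6.13 CPM in siFOXA1_E2, against 4.14, 3.13 and 4.35 CPM in siMDC1_E2 (log2 0.60 ± 0.12), and averaged 66.1 CPM in siNT_E2. Both were far below siNT_E2 after either knockdown. MYC, a growth regulator, had 64.1, 62.8 and 61.3 CPM in siFOXA1_E2, against 69.7, 69.3 and 71.4 CPM in siMDC1_E2 (log2 -0.16 ± 0.06, adjusted p = 0.021), and was not called without siFOXA1_E2 replicate 3 (adjusted p = 0.07) or siMDC1_E2 replicate 3 (adjusted p = 0.073). CXCL12, a chemokine, had 12.1, 12.6 and 13.2 CPM in siFOXA1_E2, against 18.4, 19.8 and 20.6 CPM in siMDC1_E2 (log2 -0.64 ± 0.08). PGR, the progesterone receptor, did not pass the count filter in MM134.

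**Figure D4:**
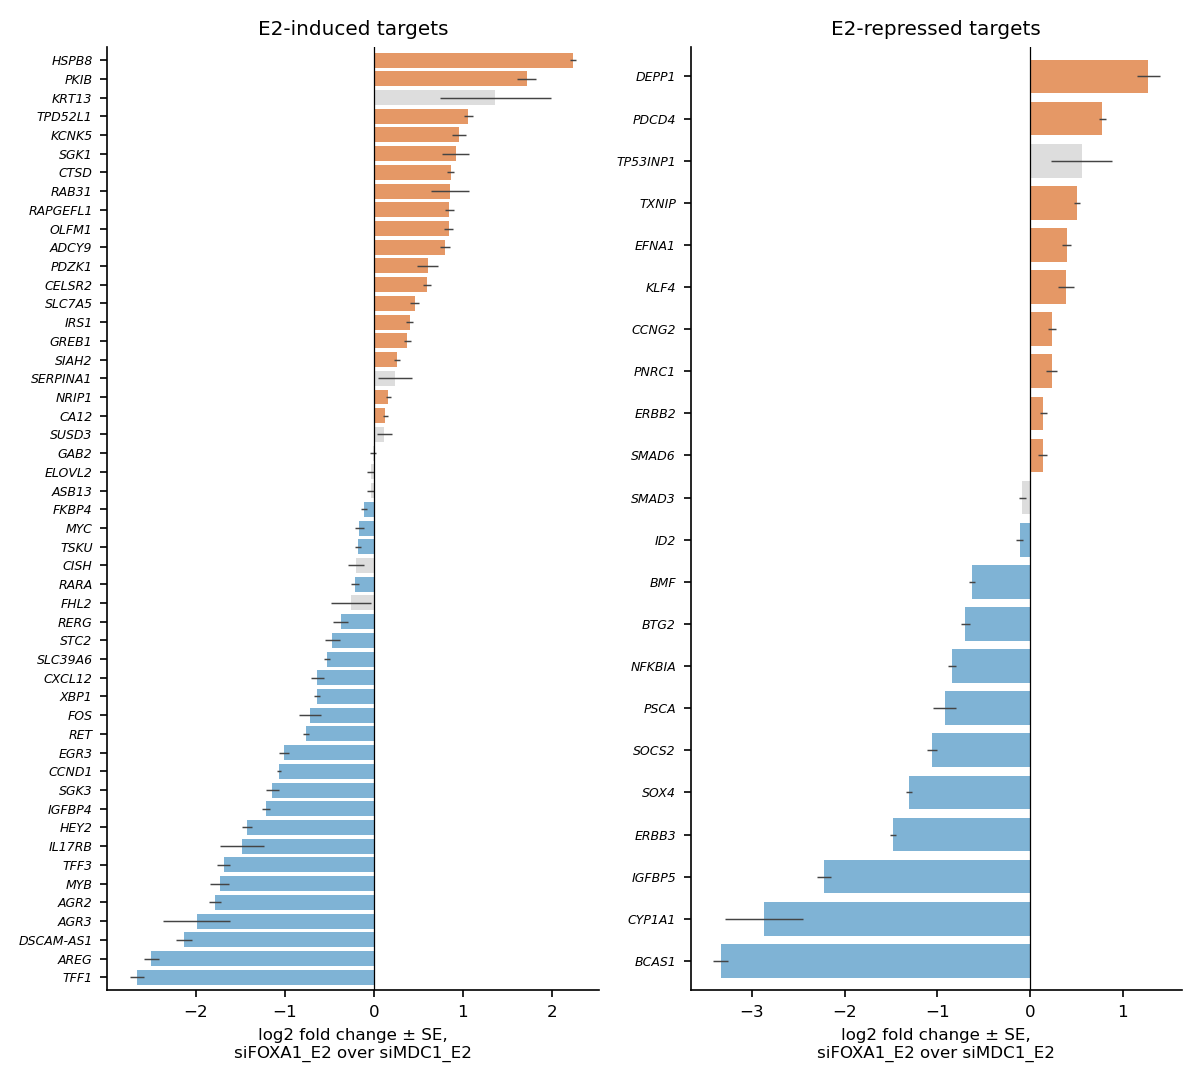
Log2 fold change of siFOXA1_E2 over siMDC1_E2 with its SE (horizontal axis) for the tested E2-induced genes (left) and E2-repressed genes (right), in grey where not called. Of 50 induced genes 24 are lower, down to TFF1 at -2.67, and 18 are higher, up to HSPB8 at 2.24.

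Of 22 tested genes that estradiol is known to repress, 9 (40.9%) were higher and 11 (50%) lower in siFOXA1_E2 (median log2 -0.099). ERBB3, a receptor of the EGF receptor family, had 209, 207 and 216 CPM in siFOXA1_E2, against 571, 597 and 599 CPM in siMDC1_E2 (log2 -1.48 ± 0.03). SOX4, a transcription factor, had 172, 169.6 and 169.0 CPM in siFOXA1_E2, against 437, 418 and 408 CPM in siMDC1_E2 (log2 -1.31 ± 0.03). The groups did not overlap in either gene, a state that picking by smallest p favours. The E2 response measured in the untargeted MM134 libraries gave a wider set. Of 539 genes (3.04%) that were 2-fold or more higher in siNT_E2 than in siNT, 184 were higher, 130 lower and 225 not called in siFOXA1_E2 against siMDC1_E2, and their median log2 fold change was 0.13. Of the 1054 genes (5.94%) lower by 2-fold or more in siNT_E2 than in siNT, 211 were higher, 311 lower and 532 not called, with a median of -0.083. The shares higher and lower were 34.1% and 24.1% of the E2-raised genes, and 20% and 29.5% of the E2-lowered genes, against 24.4% and 25.3% of all genes.

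Luminal genes moved in both directions. KRT8 and KRT18, the keratins of simple epithelium, are neighbours on chromosome 12. KRT8 had 7006, 7364 and 7415 CPM in siFOXA1_E2, against 3079, 3080 and 3129 CPM in siMDC1_E2 (log2 1.23 ± 0.03). KRT18 had 2902, 3008 and 3025 CPM in siFOXA1_E2, against 1204, 1164 and 1210 CPM in siMDC1_E2 (log2 1.32 ± 0.03). Both were higher in siFOXA1_E2 than in siMDC1_E2. They overlap each other on opposite strands and have many processed pseudogenes, so their counts are uncertain. SPDEF, an ETS factor of secretory epithelium, had 90.5, 88.1 and 93.3 CPM in siFOXA1_E2, against 218, 215 and 226 CPM in siMDC1_E2 (log2 -1.27 ± 0.03). EHF, another epithelial ETS factor, had 3.64, 4.13 and 3.11 CPM in siFOXA1_E2, against 18.0, 16.1 and 16.0 CPM in siMDC1_E2 (log2 -2.21 ± 0.10). GATA3, which defines luminal cells with FOXA1 and the receptor, had 1343, 1348 and 1307 CPM in siFOXA1_E2, against 1393, 1316 and 1278 CPM in siMDC1_E2 (log2 0.00, adjusted p = 0.93). Of 31 luminal genes tested, 14 (45.2%) were higher and 12 (38.7%) lower. Nuclear receptor genes gave 10 (40%) higher and 7 (28%) lower of 25, against 24.4% and 25.3% of all genes. VDR, the vitamin D receptor, had 96.1, 95.2 and 97.2 CPM in siFOXA1_E2, against 58.4, 60.3 and 57.8 CPM in siMDC1_E2 (log2 0.71 ± 0.04).

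Genes of basal and squamous epithelium were mostly higher in siFOXA1_E2 among those tested. Of 35 listed, 19 passed the count filter, and of these 11 (57.9%) were higher and 2 (10.5%) lower, with a median of 0.64. The shares over all genes were 24.4% and 25.3%. The count of lower genes was 1 when replicate 1 or 2 of either group was left out. LAMB3 is described above. ANXA1, a phospholipid-binding protein, had 44.4, 49.3 and 47.6 CPM in siFOXA1_E2, against 18.5, 18.5 and 19.7 CPM in siMDC1_E2 (log2 1.32 ± 0.07). SFN, the 14-3-3 protein stratifin, had 231, 240.0 and 245 CPM in siFOXA1_E2, against 157, 152 and 150.3 CPM in siMDC1_E2 (log2 0.64 ± 0.03). ITGA6, the integrin of hemidesmosomes, had 169.6, 172 and 169.8 CPM in siFOXA1_E2, against 140.1, 136 and 137 CPM in siMDC1_E2 (log2 0.31 ± 0.03). All 3 were higher in every FOXA1-targeted library. ANXA1 averaged 3.69 CPM in siNT_E2, below both groups. TP63, a master factor of basal cells, was lower, with 1.90, 2.05 and 2.44 CPM in siFOXA1_E2, against 3.42, 3.30 and 2.75 CPM in siMDC1_E2 (log2 -0.57 ± 0.21, adjusted p = 0.03), a call lost when replicate 1 or 2 of either group was left out (adjusted p = 0.073 to 0.095). A member could pass the filter through the group in which it was high, so these counts describe the tested members only.

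Among 20 desmosomal and keratin adhesion genes, 11 (55%) were higher and 7 (35%) lower, against 24.4% and 25.3% of all genes. DSC2, a desmosomal cadherin, had 68.1, 69.2 and 72.1 CPM in siFOXA1_E2, against 21.1, 20.4 and 19.4 CPM in siMDC1_E2 (log2 1.78 ± 0.06). JUP, the plakoglobin that links cadherins to the cytoskeleton, had 1060, 1055 and 1065 CPM in siFOXA1_E2, against 1713, 1667 and 1658 CPM in siMDC1_E2 (log2 -0.66 ± 0.03). CTNNB1, beta-catenin, had 160, 169 and 163 CPM in siFOXA1_E2, against 97.7, 97.1 and 107 CPM in siMDC1_E2 (log2 0.71 ± 0.04). The plakoglobin and beta-catenin transcripts moved in opposite directions, and CTNNB1 overlaps ULK4 on the other strand. Of 16 mesenchymal transition genes tested from 25 listed, 3 (18.8%) were higher and 6 (37.5%) lower. CDH2, N-cadherin, had 12.1, 14.3 and 12.2 CPM in siFOXA1_E2, against 57.4, 59.3 and 56.9 CPM in siMDC1_E2 (log2 -2.17 ± 0.05), and averaged 28.4 CPM in siNT_E2. FN1, fibronectin, had 64.2, 57.0 and 62.1 CPM in siFOXA1_E2, against 147, 156 and 155 CPM in siMDC1_E2 (log2 -1.32 ± 0.04). Both were low in siFOXA1_E2.

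Growth factor signalling genes were more often lower than higher in siFOXA1_E2 against siMDC1_E2. Of 23 tested genes of the EGF receptor family, its ligands and its feedback targets, 6 (26.1%) were higher and 11 (47.8%) lower (median -0.60). That median was -0.36 without siFOXA1_E2 replicate 3 and -0.33 without siMDC1_E2 replicate 1. Against siNT_E2, whose libraries both comparisons share, the median of this list was 0.094 in siFOXA1_E2 and 0.361 in siMDC1_E2. For the IGF and insulin genes below, it was -0.109 in siFOXA1_E2 and -0.038 in siMDC1_E2. ETV4, an ETS factor downstream of the pathway, had 50.2, 50.6 and 49.0 CPM in siFOXA1_E2, against 101, 104 and 99.9 CPM in siMDC1_E2 (log2 -1.02 ± 0.04). DUSP6, a phosphatase that restrains ERK, had 96.7, 98.9 and 101 CPM in siFOXA1_E2, against 168, 168 and 167 CPM in siMDC1_E2 (log2 -0.76 ± 0.03). Of 18 IGF and insulin genes, 4 (22.2%) were higher and 12 (66.7%) lower (median -0.31). Over all genes, 24.4% were higher and 25.3% lower. IGFBP4 had 183, 167 and 187 CPM in siFOXA1_E2, against 404, 416 and 426 CPM in siMDC1_E2 (log2 -1.21 ± 0.04), and averaged 1234 CPM in siNT_E2. PIK3R3, a regulatory subunit of PI3 kinase, was higher, with 265, 282 and 275 CPM in siFOXA1_E2, against 178, 178 and 185 CPM in siMDC1_E2 (log2 0.60 ± 0.03).

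Interleukin, chemokine and NF-kB genes gave 3 (17.6%) higher and 10 (58.8%) lower of 17 tested from 36 listed (median -0.36). The shares over all genes were 24.4% and 25.3%. TNFSF15, a cytokine of the tumour necrosis factor family, had 17.5, 17.3 and 17.9 CPM in siFOXA1_E2, against 48.9, 48.1 and 46.4 CPM in siMDC1_E2 (log2 -1.44 ± 0.05). RELB, an NF-kB subunit, had 10.9, 11.6 and 13.04 CPM in siFOXA1_E2, against 26.9, 26.5 and 28.1 CPM in siMDC1_E2 (log2 -1.20 ± 0.10). Their siNT_E2 means, 18.8 CPM for TNFSF15 and 11.1 CPM for RELB, were close to the siFOXA1_E2 values. Of 36 interferon response genes tested from 47 listed, 4 (11.1%) were higher and 17 (47.2%) lower (median -0.27). IRF1, an interferon-induced transcription factor, had 11.9, 12.2 and 12.5 CPM in siFOXA1_E2, against 23.8, 24.6 and 23.1 CPM in siMDC1_E2 (log2 -0.97 ± 0.06), and averaged 13.4 CPM in siNT_E2. UBE2L6, the ISG15-conjugating enzyme, was among the 4 that were higher (log2 0.55 ± 0.04).

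Mitotic genes were lower in siFOXA1_E2 than in siMDC1_E2 in nearly every member. Of 36 tested, none was higher and 32 (88.9%) were lower, with a median of -0.35, and 1 was lower by 2-fold. Over all genes, 24.4% were higher and 25.3% lower. Against siNT_E2, whose libraries both comparisons share, the mitotic median was below 0 in both groups, -0.509 in siFOXA1_E2 and -0.212 in siMDC1_E2. FOXM1, a transcription factor of mitotic genes, had 171, 168 and 171 CPM in siFOXA1_E2, against 280.2, 276 and 274 CPM in siMDC1_E2 (log2 -0.70 ± 0.03). CCNA2, cyclin A2, had 38.0, 40.8 and 39.3 CPM in siFOXA1_E2, against 84.1, 81.7 and 88.5 CPM in siMDC1_E2 (log2 -1.11 ± 0.05). MKI67, a proliferation antigen, had 743, 743 and 748 CPM in siFOXA1_E2, against 868, 888 and 747 CPM in siMDC1_E2 (log2 -0.16 ± 0.05), and here the groups overlapped. The MKI67 call was lost without siMDC1_E2 replicate 1 (adjusted p = 0.056) or replicate 2 (adjusted p = 0.079). Of 46 DNA replication genes, 9 (19.6%) were higher and 29 (63%) lower (median -0.16). Their median against siNT_E2 was -0.37 in siFOXA1_E2 and -0.213 in siMDC1_E2. MCM6, a subunit of the replicative helicase, had 102, 98.8 and 105 CPM in siFOXA1_E2, against 279, 278 and 287 CPM in siMDC1_E2 (log2 -1.47 ± 0.03). MCM2, another subunit, was lower by less, with 269, 272 and 271 CPM in siFOXA1_E2, against 373, 374 and 382 CPM in siMDC1_E2 (log2 -0.47 ± 0.03). PCNA, the sliding clamp, had 109, 109.7 and 118 CPM in siFOXA1_E2, against 210.5, 206 and 225 CPM in siMDC1_E2 (log2 -0.93 ± 0.04).

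DNA damage response genes, the field in which MDC1 acts, gave 8 (19%) higher and 15 (35.7%) lower of 42 tested. None passed 2-fold, and the median was -0.051. The shares over all genes were 24.4% and 25.3%. XRCC6, the Ku70 subunit that binds DNA ends, was higher, with 467, 468 and 469 CPM in siFOXA1_E2, against 341, 342 and 351 CPM in siMDC1_E2 (log2 0.44 ± 0.03). BRCC3, a deubiquitinase of the BRCA1-A complex, had 57.9, 54.0 and 56.0 CPM in siFOXA1_E2, against 32.2, 32.2 and 29.5 CPM in siMDC1_E2 (log2 0.84 ± 0.05). Both were picked by smallest p, which favours separated groups. The 26 p53 target genes gave 8 (30.8%) higher and 9 (34.6%) lower (median 0.047), shares not far from those over all genes. Among them GADD45A, a stress response gene, was higher at log2 0.77 ± 0.04. MDM2, the ubiquitin ligase of p53, was lower at log2 -0.51 ± 0.04. Of 21 apoptosis regulators, 5 (23.8%) were higher and 10 (47.6%) lower. BCL2, the anti-apoptotic protein, had 40.9, 42.9 and 39.0 CPM in siFOXA1_E2, against 26.3, 27.2 and 26.7 CPM in siMDC1_E2 (log2 0.62 ± 0.05). BIK, a pro-apoptotic protein, had 3.32, 4.23 and 4.10 CPM in siFOXA1_E2, against 12.4, 9.22 and 10.8 CPM in siMDC1_E2 (log2 -1.48 ± 0.12).

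Among metabolic and stress genes, 18 (56.2%) of 32 hypoxia and glycolysis genes were higher and 5 (15.6%) lower (median 0.19). Over all genes, the shares were 24.4% and 25.3%. LDHA, lactate dehydrogenase, had 743, 780.0 and 797 CPM in siFOXA1_E2, against 530.3, 531 and 559 CPM in siMDC1_E2 (log2 0.52 ± 0.03). EGLN3, an oxygen sensor of the pathway, ran the other way with 19.3, 16.3 and 17.4 CPM in siFOXA1_E2, against 76.7, 73.5 and 73.1 CPM in siMDC1_E2 (log2 -2.08 ± 0.05). Its mean in siNT_E2 was 15.9 CPM, near the FOXA1-targeted value, and it overlaps SPTSSA on the same strand. Of 34 cholesterol and fatty acid genes, 15 (44.1%) were higher and 8 (23.5%) lower (median 0.11), with SCD, the stearoyl-CoA desaturase, higher at log2 0.57 ± 0.03. Without siFOXA1_E2 replicate 1, the list's count of lower genes was 5. Of 39 unfolded protein and amino acid stress genes, 17 (43.6%) were higher and 12 (30.8%) lower (median 0.054). XBP1, a factor of the secretory pathway and a receptor target, had 462, 479 and 489 CPM in siFOXA1_E2, against 715, 730 and 776 CPM in siMDC1_E2 (log2 -0.64 ± 0.03). Of 21 heat shock genes, 11 (52.4%) were higher and 3 (14.3%) lower (median 0.11). Ribosome biogenesis genes gave 9 (25%) higher and 13 (36.1%) lower of 36 (median 0.004), not far from the shares over all genes. The 13 mitochondrially encoded genes gave none higher and 8 (61.5%) lower (median -0.13). The count called lower was 5 without siFOXA1_E2 replicate 3, 2 without siMDC1_E2 replicate 1 and 5 without siMDC1_E2 replicate 2. Mitochondrial transcripts took 8.65% to 8.94% of counts in siFOXA1_E2 and 8.97% to 9.83% in siMDC1_E2.

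Markers of immune and endothelial cells were near 0 in both groups. Of 17 immune markers, 2 passed the filter and neither was called, and the summed level of all 17 was 2.06 to 2.21 CPM in siFOXA1_E2 and 1.82 to 2.41 CPM in siMDC1_E2. AIF1, CD3D, CD3E, NKG7 and TYROBP had no count in the 6 libraries. Of 11 endothelial markers, only FLT1 was tested, and all 11 summed to 1.88 to 2.67 CPM in siFOXA1_E2 and 0.95 to 1.31 CPM in siMDC1_E2. FLT1, a receptor of vascular growth factor, was called higher (log2 2.61 ± 0.48, adjusted p = 8e-05) from few counts, and CDH5 and ERG had no count. Of 14 fibroblast markers, which summed to 241 to 251 CPM in siFOXA1_E2 and 202 to 205 CPM in siMDC1_E2, 6 were tested, 2 higher and none lower, with FBLN1 at 145, 150.5 and 156 CPM in siFOXA1_E2 and 107, 110.3 and 114 CPM in siMDC1_E2, and COL1A2, COL3A1, DCN, LUM and PDGFRA had no count. FBLN1, a matrix glycoprotein, was most of that sum.

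The same pair of knockdowns was set side by side in the other lines. Called differences numbered 8709 (48.8%) of 17834 genes in MM330 and 8294 (45.4%) of 18286 in HCC1428. By 2-fold or more, 1189 (6.67%) were higher and 931 (5.22%) lower in MM330, and 612 (3.35%) were higher and 789 (4.31%) lower in HCC1428. Of 598 genes tested in both lobular lines that were 2-fold or more higher in MM134, 231 (38.6%) were also higher in MM330, where they were 26.3% of 879. Of 677 such genes tested in HCC1428, 152 (22.5%) were higher there, 36.7% of 414. Of 476 genes 2-fold or more lower in MM134, 127 (26.7%) were lower in MM330, where they were 16.4% of 773, and of 455, 127 (27.9%) were lower in HCC1428, 20.6% of 617. Counts in the opposite direction were 5 of the higher and 25 of the lower genes in MM330, and 8 and 9 in HCC1428. Of the 24 highest and lowest genes, 20 were tested in MM330, of which 18 had the same sign and were called and 1, IGFBP3, was called with the opposite sign. In HCC1428, 15 of the 21 tested had the same sign and were called. The same sign did not mean the same size. A difference between lines, tested as given next, was called for 17 of the 24 towards MM330 and 21 towards HCC1428. Over all genes tested for it, that difference was called for 31.3% and 24.3%. The 24 genes were chosen by extreme MM134 values, which enter that difference. How far their higher shares follow from that choice was not tested.

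The difference between lines was also tested for each gene. It was called for 6714 (31.3%) of 21447 genes between MM134 and MM330, and for 5203 (24.3%) between MM134 and HCC1428. Mitosis and replication genes differed between the lines. The mitotic genes had a median of -0.35 in MM134, against -1.19 in MM330, where all 36 were lower in siFOXA1_E2, and -1.21 in HCC1428, where 35 of 36 were. The difference was called for 35 of the 36 towards MM330 and 33 towards HCC1428, each with a difference above 0. Of the 46 replication genes, 9 were higher in MM134, while all 46 were lower in MM330 (median -2.06) and in HCC1428 (median -1.18). CDC6, which loads the replicative helicase, had 128, 126 and 130.3 CPM in siFOXA1_E2, against 125, 128 and 136 CPM in siMDC1_E2 in MM134, with overlapping groups. Its log2 fold change was -0.01 in MM134 (-0.015), -2.99 in MM330 and -1.60 in HCC1428, and the MM134 minus MM330 difference was 2.97 (adjusted p = 1.5e-19). CDCA7, a chromatin factor of dividing cells, CCNE2, cyclin E2, and RRM2, a subunit of ribonucleotide reductase, had differences of 3.20, 2.91 and 2.87 to MM330. In MM330, replicate 1 of siFOXA1_E2 had a count at 18829 genes, against 23712 to 24894 in the other 5 compared libraries. Without it, in a comparison added after the data were seen, the MM330 medians were -1.42 for mitosis and -2.29 for replication, all 36 and all 46 genes stayed lower, and the CDC6 difference was 3.37.

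**Figure D5:**
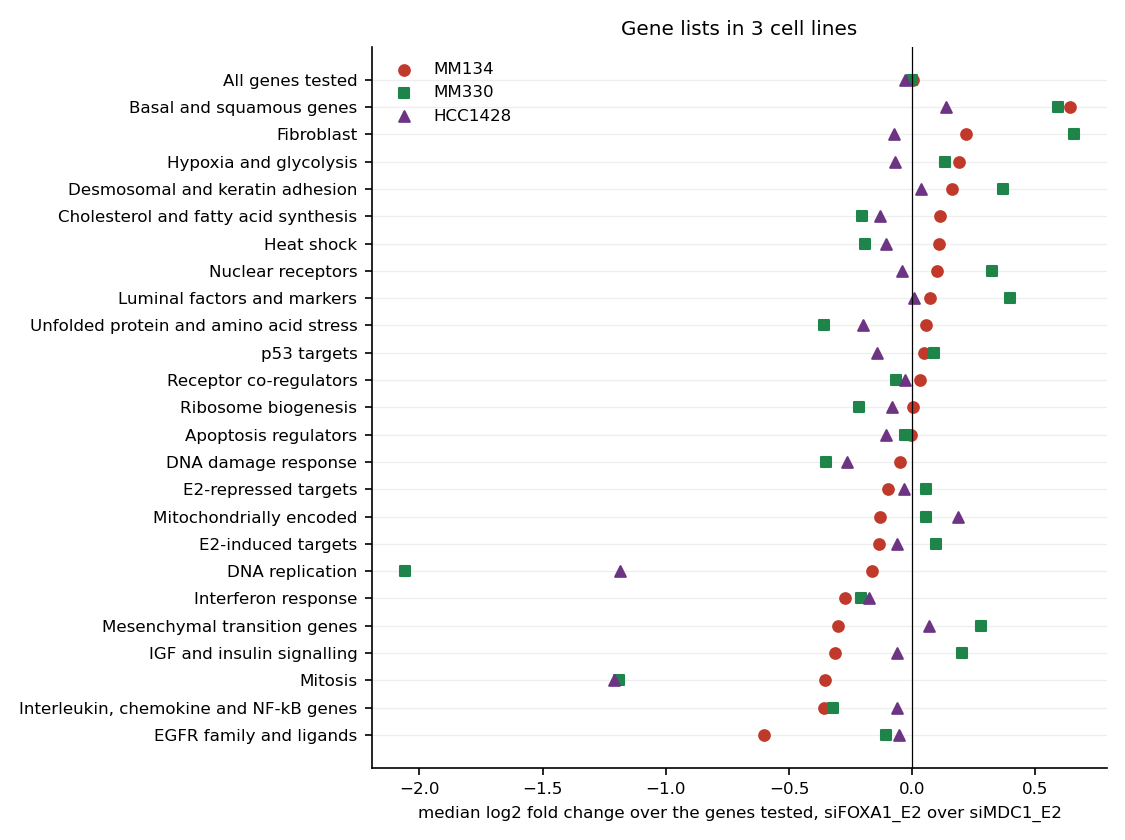
Median log2 fold change of siFOXA1_E2 over siMDC1_E2 (horizontal axis) for each gene list with at least 5 genes tested, in MM134 (circles), MM330 (squares) and HCC1428 (triangles). DNA replication lies at -0.16 in MM134, -2.06 in MM330 and -1.18 in HCC1428, and mitosis at -0.35 in MM134, -1.19 in MM330 and -1.21 in HCC1428.

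Other genes had differences below 0. The genes ranked here by difference were protein-coding, called for the difference and at 10 CPM or more in a compared group of both lines. IGFBP3 fell outside that limit, with means of 8.38 CPM in siFOXA1_E2 and 3.91 CPM in siMDC1_E2 in MM330, and its MM134 minus MM330 difference was -4.50 (adjusted p = 2e-14), from log2 -3.38 in MM134 and 1.10 in MM330. IGFBP5, an IGF-binding protein, had 7.60, 5.92 and 7.30 CPM in siFOXA1_E2, against 33.6, 32.5 and 31.2 CPM in siMDC1_E2 in MM134 (log2 -2.22 ± 0.08). In MM330 it was higher, at log2 1.40, and the difference was -3.64. SPARC, a matrix protein, was higher in both lobular lines, but by log2 0.59 in MM134 and 4.11 in MM330, with a difference of -3.53. FPR3, a chemoattractant receptor, had 2.96, 3.01 and 2.74 CPM in siFOXA1_E2, against 15.9, 16.9 and 16.0 CPM in siMDC1_E2 in MM134, and its difference to MM330 was -3.73. It overlaps ZNF577 on the other strand. Towards HCC1428, PTGES, KIFC3, a kinesin, NRXN3 and CAPN5 had the highest differences within that limit, at 2.92, 2.502, 2.402 and 2.40. EHF, ZNF107, DAPK1 and RHOBTB1 had the lowest, at -3.06, -2.61, -2.57 and -2.34, and of these EHF and DAPK1 were lower in siFOXA1_E2 in MM134 and higher in HCC1428. ESR1 was higher in siFOXA1_E2 in MM330 (log2 0.50) and not called in HCC1428 (log2 -0.04), and its MM134 minus MM330 difference was -0.65 (-0.67 without the MM330 library with fewer genes).

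A smaller group of genes moved the same way in all 3 lines. Of 559 genes tested in all 3 lines that were called 2-fold or more higher in MM134, 86 (15.4%) were so in every line, and of 399 lower ones 56 (14%) were. Over all genes tested, 6.67% in MM330 and 3.35% in HCC1428 were 2-fold or more higher, and 5.22% and 4.31% lower. Of the 86 and the 56, 42 and 33 were protein-coding with at least 10 CPM in MM134. They include the targeted genes themselves, MDC1 in the 42 and FOXA1 in the 33. TMED10, a cargo receptor of the early secretory pathway, and GOLGA4, a golgin, were named after their values were seen. TMED10 had 261, 269 and 279 CPM in siFOXA1_E2, against 66.4, 71.8 and 66.7 CPM in siMDC1_E2 (log2 1.98 ± 0.04), with means of 266 CPM in siNT_E2 and 239 CPM in siNT. GOLGA4 had 129.7, 134 and 136 CPM in siFOXA1_E2, against 35.5, 34.9 and 30.0 CPM in siMDC1_E2 (log2 1.99 ± 0.05), with a mean of 106 CPM in siNT_E2. In both, siMDC1_E2 was below the other groups named here. MORF4L1, a chromatin-associated protein, and GNG5, a G protein gamma subunit, were chosen in the same way and were low in siFOXA1_E2. MORF4L1 had 67.3, 79.6 and 77.3 CPM in siFOXA1_E2, against 261, 252 and 259 CPM in siMDC1_E2 (log2 -1.78 ± 0.05), with a mean of 289 CPM in siNT_E2. GNG5 had 12.7, 9.25 and 11.2 CPM in siFOXA1_E2, against 40.2, 35.6 and 42.7 CPM in siMDC1_E2, with a mean of 30.9 CPM in siNT_E2. RDH16, CYP4F22, LY6G6C and HSPB8 were among the 42, and SRARP, BCAS1, RND1, TFF1, AREG, IGFBP4, CCNA2 and MCM6 among the 33.

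Because FOXA1 binds forkhead motifs, the promoters of the 24 highest and lowest genes were searched on both strands for the motif TGTTTAC, for its variant TATTTAC and for its variant TGTTTGC, in the 300 bases from 250 before to 50 after the RefSeq start of each gene. Such a motif was present in 9.57% of 35116 promoters, or 3.42%, 2.67% and 3.89% for the single motifs. The shares are per promoter, while the genes below are counted per gene, and some had more than 1 promoter. A promoter was found for 19 of the 24 genes, and only NRXN3 had a motif in one of its promoters. Outside the 24, KRT8, FOXA1, MDC1 and ESR1 were also searched, and KRT8 and FOXA1 each had TGTTTGC. The upstream 250 bases of the NRXN3 promoter with the motif lie on the plus strand of GRCh38.p14 at chr14:78170123-78170372. They are shown because it is the only match among the 24 genes, with the motif in capitals.
NRXN3: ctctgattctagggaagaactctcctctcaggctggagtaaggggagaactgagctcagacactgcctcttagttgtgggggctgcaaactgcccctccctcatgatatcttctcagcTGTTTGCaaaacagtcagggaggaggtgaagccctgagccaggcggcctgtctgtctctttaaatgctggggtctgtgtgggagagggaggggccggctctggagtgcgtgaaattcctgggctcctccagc
The motif begins at base -132 from the start. A match is a description of the sequence and not a measured binding site, and FOXA1 also binds far from promoters, where these windows do not reach.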

How the data were processed

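Polyadenylated RNA was sequenced as paired reads of 150 bases (stranded library kit, per the labels). The submitters' processing notes name STAR 2.6.0a, the build GRCh38 and limma, and no source used here gives the counting tool, annotation or strand setting. The deposited values are raw counts per gene symbol, and the authors had applied no normalization to them. Of 57353 symbols, 16974 had no count, 2 were repeated and 27 had become dates (0.195% of counts). Positions and types came from GENCODE 29, in which 56598 symbols were found. The 6 compared libraries held 29.8 to 33.4 M counts.

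The 15 MM134 libraries were fitted together in R 4.3.3 with edgeR 4.0.16 (filterByExpr by group with a minimum count of 10, TMM scaling, glmQLFit and glmQLFTest, Benjamini-Hochberg adjustment over all genes tested). SEs were taken from the quasi-likelihood statistic, and CPM used TMM-scaled totals within a line. MM330 and HCC1428 were fitted in the same way, and differences between lines in a fit of all 45 libraries. The comparison of siNT_E2 with siNT in MM134 was added to define E2-responsive genes. The pipeline was run on simulated counts in which few genes changed, unlike the many called here. That run does not measure error rates in these data.

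Genes named were FOXA1, MDC1 and ESR1, the 12 highest and 12 lowest among called protein-coding genes whose groups did not overlap and of which either reached 10 CPM, up to 4 members per list by smallest p, a panel (TFF1, GREB1, PGR, PDZK1, MYC and CXCL12) and the 4 highest and 4 lowest of each line difference, among called protein-coding genes that reached 10 CPM in both lines. GATA3, MKI67, TP63, TMED10, GOLGA4, MORF4L1 and GNG5 were chosen after their values were seen. The 26 lists hold 784 entries, and the comparison and lists were chosen with earlier results of these data known. Listed genes with other symbols were not used here. Alternatives were RLE scaling, no filter, a replicate block, limma-voom (limma 3.58.1), DESeq2 1.42.0, compared libraries only, leaving out each library, and 2 added after the data were seen, leaving out the libraries with more pseudogene counts and leaving out an MM330 library with few genes detected. Some genes that the naming rule selects are not reported here.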

Additional observations from a re-analysis of the deposited data

Results flagged for a closer look

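The effect of FOXA1 against MDC1 knockdown differed between MM134 and MM330 for 6714 genes, and between MM134 and HCC1428 for 5203 genes, by interaction contrasts of edgeR's quasi-likelihood test over 45 libraries. Each gene below was named by the rule for named genes, and its difference passed the test. Values are the log2 fold change in MM134 minus that in the other line.

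Towards MM330, positive differences were CDCA7 at 3.20, CDC6 at 2.97, CCNE2 at 2.91, RRM2 at 2.87 and MYC at 0.40. Negative ones were FPR3 at -3.73, IGFBP5 at -3.64, SPARC at -3.53, SIX2 at -2.81 and CXCL12 at -1.02. Among the targeted genes and receptor targets, ESR1 was at -0.65, TFF1 at -0.65 and FOXA1 at -0.26 (-0.255).

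Towards HCC1428, PTGES was at 2.92, KIFC3 at 2.502, NRXN3 at 2.40 (2.402), CAPN5 at 2.40, CXCL12 at 0.94 and MDC1 at 0.69. Negative differences were EHF at -3.06, ZNF107 at -2.61, DAPK1 at -2.57, RHOBTB1 at -2.34, TFF1 at -1.49, GREB1 at -0.90 (-0.895), PDZK1 at -0.89 (-0.885) and FOXA1 at -0.18.

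Some of these differences rested on single libraries or settings. The FOXA1 difference to HCC1428 (adjusted p = 0.048, edgeR) was lost in every alternative run except leaving out HCC1428 siFOXA1_E2 replicate 1, with adjusted p up to 0.25, and that to MM330 was lost with no filter on low counts (adjusted p = 0.068). The MDC1 difference to HCC1428 had an adjusted p of 1.8e-07 and was called in every alternative run. The part of unequal knockdown in the other differences was not tested. The CXCL12 difference to MM330 was lost without MM330 siFOXA1_E2 replicate 1 (-0.721), without MM330 siMDC1_E2 replicate 2 or 3 (-0.872 each) and without the libraries with more pseudogene counts (-0.82). That to HCC1428 was 1.68 without HCC1428 siFOXA1_E2 replicate 2. It was lost, at 0.599 to 0.952, when replicate 1 or 3 of either HCC1428 group, MM134 siFOXA1_E2 replicate 2 or 3, or MM134 siMDC1_E2 replicate 1 or 2 was left out, and also with limma-voom and without the libraries with more pseudogene counts. The TFF1 difference to MM330 was lost with limma-voom (adjusted p = 0.14).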

How the results depend on the processing

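In MM134, 8831 genes were called between siFOXA1_E2 and siMDC1_E2. The count was 8858 with RLE scaling, 8927 with no filter on low counts, 8738 with limma-voom, 8530 with DESeq2, 8685 in a fit of the compared libraries only, and 8050 to 8440 when 1 compared library was left out. With a replicate block it was 8750, and 167 of the 8831 were not called. Same-numbered deviations from the group means correlated at 0.025 to 0.056, and those with different numbers at -0.06 to 0.033. Not every library correlated best with its own number (siFOXA1_E2 replicate 3 was at 0.033 with siMDC1_E2 replicate 2). With 3 libraries per group, these values cannot show whether the replicate numbers pair the libraries. Leaving out the libraries with more pseudogene counts gave 8438, and 759 of the 8831 were not called.

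With no filter on low counts, 1400 genes were called 2-fold or more lower in MM330 (931 with it), and 1354 had a difference between MM134 and MM330 called 2-fold or more higher (845 with it). The cause was not tested.

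Of 144 genes named, 134 kept their direction and their side of the threshold in every alternative run of the MM134 comparison. Directions that turned belonged to genes that were not called. GATA3 in MM134 (0.004) was -0.016 with no filter and -0.002 without the libraries with more pseudogene counts, and spanned -0.021 to 0.036 when 1 library was left out. CDC6 in MM134 (-0.015) spanned -0.045 to 0.022 when 1 library was left out. The PDZK1 difference between MM134 and MM330 (-0.032) was 0.032 with no filter and 0.061 without the libraries with more pseudogene counts, and spanned -0.158 to 0.205 when 1 library was left out. The GREB1 difference between the same lines (-0.072) spanned -0.163 to 0.015 when 1 library was left out. RRM2 in MM134 was not called with no filter (0.069), in the compared libraries only (0.092) or without siFOXA1_E2 replicate 2 or 3 or siMDC1_E2 replicate 1 or 2 (0.055 to 0.086).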
